A study of Mus musculus with 14 samples.

Results

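To determine how Polycomb-marked chromatin at the starts of long noncoding RNA (lncRNA) genes compared between control and NeuID knockdown neurons, the H3K27me3 peaks that lie at such starts were collected from the authors' peak list. A peak was taken when it was narrower than 2000 bases, lay within 1 kb of the annotated gene start of a long noncoding gene, and did not lie within 1 kb of the start of a protein-coding gene. The rule found 488 of the 23668 listed peaks, or 2.06%. The group means did not enter the rule, but width did, which comes from peak calling on these reads. The cultures were primary hippocampal neurons, labelled WT, from CD1 mouse embryos of mixed sex at embryonic day 17. Control cultures received a non-targeting gapmer and knockdown cultures a gapmer against NeuID, which in mouse is the lncRNA gene Gm10419. Per the study's methods both were delivered in lipid nanoparticles on day 7 in vitro, and experiments ran between days 10 and 21 in vitro. The labels list 6 control libraries, 6 knockdown libraries and 1 input library for each condition. A peak list of a repressive histone mark offers no markers against which the labelled cell type could be checked.

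H3K27me3 is deposited by Polycomb repressive complex 2 (PRC2), whose catalytic subunit is EZH1 or EZH2. The mark covers the promoters of developmental regulators in cells that do not use them, and unmethylated CpG-rich DNA is a known site of PRC2 recruitment in mammals. Many lncRNA genes start close to developmental genes and are transcribed from the opposite strand or away from a shared control region, so they can lie inside the same Polycomb domain. Chromatin immunoprecipitation (ChIP) reads carry no strand of transcription, so a peak at such a start belongs to the region and not to either gene.

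The values are the authors' means of normalized reads on the log2 scale, over all libraries (the overall mean) and for each group. They are group means without values per library, so neither a spread between replicates nor a test accompanies them. A difference below is the knockdown mean minus the control mean, and a peak was counted as lower or higher in the knockdown when the group means differed at least 2-fold, a difference of 1 on the log2 scale. This is a rule of size and not a call of significance. A group mean listed at 0 is a floor that stands for at most 1 normalized read, and such peaks were counted separately with no fold. The overall mean weighted the control and knockdown means as 6 to 5 libraries, whereas the labels list 6 of each. The total reads of each library were not analysed here, so the depth behind the means is unknown.

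The peaks at lncRNA starts differed in DNA composition, and 7 windows of 200 bases show this at the peaks with the highest mean, the largest differences and the highest one-sided signal. Each is read 5′ to 3′ on the strand of the lncRNA from build GRCm38 (mm10), with every CpG in capitals. The windows are centred on the gene start where the peak covers it and on the peak centre elsewhere.
A430072P03Rik: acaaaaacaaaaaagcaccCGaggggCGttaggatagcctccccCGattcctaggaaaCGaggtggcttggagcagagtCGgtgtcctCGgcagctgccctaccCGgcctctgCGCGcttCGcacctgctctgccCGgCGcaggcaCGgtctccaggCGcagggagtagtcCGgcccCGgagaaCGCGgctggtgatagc
Gm26755: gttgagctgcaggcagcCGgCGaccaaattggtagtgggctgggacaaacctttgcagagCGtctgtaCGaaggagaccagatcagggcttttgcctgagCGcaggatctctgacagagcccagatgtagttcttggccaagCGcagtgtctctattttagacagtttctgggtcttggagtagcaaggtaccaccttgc
Gm16157: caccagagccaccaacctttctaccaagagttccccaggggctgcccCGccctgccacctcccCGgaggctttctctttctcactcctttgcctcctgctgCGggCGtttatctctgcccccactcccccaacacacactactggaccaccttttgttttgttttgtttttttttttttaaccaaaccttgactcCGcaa
Gm49796: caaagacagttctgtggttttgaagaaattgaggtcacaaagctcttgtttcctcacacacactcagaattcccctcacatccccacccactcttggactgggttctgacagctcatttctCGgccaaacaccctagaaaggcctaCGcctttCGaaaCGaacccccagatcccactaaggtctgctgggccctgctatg
Gm13344: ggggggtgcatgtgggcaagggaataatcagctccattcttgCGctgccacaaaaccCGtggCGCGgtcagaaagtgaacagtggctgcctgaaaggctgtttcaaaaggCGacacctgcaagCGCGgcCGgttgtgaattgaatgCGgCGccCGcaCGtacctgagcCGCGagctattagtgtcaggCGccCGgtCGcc
Gm40348: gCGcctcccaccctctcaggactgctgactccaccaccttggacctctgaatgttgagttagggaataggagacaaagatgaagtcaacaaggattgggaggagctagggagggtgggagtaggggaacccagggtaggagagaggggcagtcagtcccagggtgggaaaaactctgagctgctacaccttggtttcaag
9330158H04Rik: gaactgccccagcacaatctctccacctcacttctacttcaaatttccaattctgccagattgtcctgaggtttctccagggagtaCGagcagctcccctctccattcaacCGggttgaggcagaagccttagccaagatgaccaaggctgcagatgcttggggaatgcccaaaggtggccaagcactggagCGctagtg

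The window of A430072P03Rik (chr5:107723599-107723798, plus strand) held 18 CpG. It lies upstream of the lncRNA start, across an intron and a coding exon of Gfi1, a zinc finger repressor of transcription. The window of Gm26755 (chr2:79454465-79454664, plus strand) held 6 and falls in an intron of the lncRNA and within a coding exon of Neurod1, a proneural transcription factor gene on the opposite strand. The window of Gm16157 (chr7:68275756-68275955, minus strand) held 5, and 48.5% of its bases are marked as repeats in the reference. It is intronic to Gm16157 and to Fam169b. The window of Gm49796 (chr17:27398047-27398246, plus strand) spans the gene start into the first exon and held 4. The intronic window of Gm13344 (chr2:19430940-19431139, minus strand) held 17. At the peaks with one group at the floor, the window of Gm40348 (chr5:137167217-137167416, plus strand), an intron, held 1 and that of 9330158H04Rik (chr6:36390467-36390666, minus strand), in an intron of Chrm2, held 3. CpG density therefore differed widely among these 7 windows, and each direction of difference included a window with few CpG.

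The 488 peaks lay at 420 of the 10120 lncRNA genes in the annotation (4.15%), against 1880 of 21951 protein-coding genes (8.56%) with a peak under 2 kb at their start. A further 202 narrow peaks lay at a lncRNA start and also at a protein-coding start and were left out by the rule. By annotation class, 254 of the 488 peaks were nearest to a lincRNA gene, 176 to an antisense gene, 48 to a processed transcript, 7 to a sense intronic gene and 3 to a bidirectional promoter lncRNA. Most of the genes carry systematic names, with 312 peaks at Gm-numbered genes and 106 at Rik genes. The 31 peaks at genes named after a protein-coding partner, such as Hoxb5os or Dlx6os1, had a median overall mean of 3.88. The peaks at Gm-numbered genes had a median of 3.20 on the same log2 scale.

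In 199 of the 488 peaks the lncRNA start lay inside a protein-coding gene, and 104 peaks overlapped a protein-coding exon. The nearest protein-coding gene was on the opposite strand with the lncRNA starting downstream of its start in 224 cases, was divergent in 109 and was on the same strand in 155. The distance to the nearest protein-coding start was 1 to 5 kb for 127 peaks, 5 to 10 kb for 58, 10 to 50 kb for 136 and more than 50 kb for 167. The median overall mean was 3.67 in the 5 to 10 kb class and 2.96 beyond 50 kb. The peaks far from any protein-coding start were thus also the weaker ones by median.

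A peak covered the gene start itself in 142 cases, lay downstream of it in 177 and upstream in 169. The covering peaks had a median overall mean of 3.66, against 3.04 downstream and 3.14 upstream. Around the start, the share of peaks that covered a position was highest slightly downstream. Among the 115 peaks whose overall mean was 4 or more (16 normalized reads), 45.2% covered the start and 50.4% covered the position 150 bases downstream. Among the 195 peaks with an overall mean below 3, 23.6% covered the position 250 bases downstream. Wider peaks cover more positions, and the rule admits no peak further than 1 kb from a start, so the shape of these curves is in part set by peak width and by the rule.

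**Figure D1:**
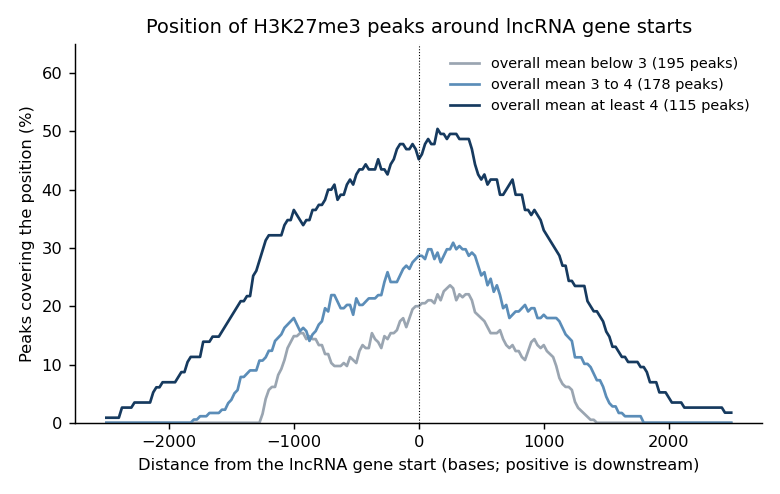
Share of peaks (%) that cover each position from 2500 bases upstream to 2500 bases downstream of the nearest lncRNA gene start, drawn separately for peaks whose overall mean was below 3 (195 peaks), from 3 to 4 (178 peaks) or 4 and above (115 peaks). The strongest class reached 50.4% at 150 bases downstream of the start and the weakest reached 23.6% at 250 bases downstream.

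The peaks at lncRNA starts were stronger by median than the list as a whole and weaker than those at protein-coding starts. Their overall mean had a median of 3.28 and ranged from 1.58 to 6.05, or from 2.98 to 66.4 normalized reads. The median was 2.93 over all listed peaks, 3.56 over the 2266 narrow peaks at protein-coding starts and 2.85 over the 20221 narrow peaks away from both kinds of start. An overall mean of 4 or more was found in 23.6% of the peaks at lncRNA starts, 14.1% of all listed peaks, 34.8% of those at protein-coding starts and 8.64% of those away from both. Strength and width moved together across the 488 peaks (Spearman's rho 0.89 across peaks, which share libraries and are not replicates). The median width was 517.5 bases, with a range from 201 to 1983.

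CpG content followed the same order. The CpG observed to expected ratio compares the count of CpG with that expected from the C and G of the same sequence. Its median was 0.34 in peaks at lncRNA starts, 0.55 at protein-coding starts, 0.20 away from both and 0.22 over all listed peaks. A composition like that of a CpG island (at least 50% GC, a ratio of at least 0.6 and at least 200 bases) was met by 80 of the 488 peaks (16.4%). It was met by 40.7% of the narrow peaks at protein-coding starts and by 3.05% of those away from both. Among the peaks at lncRNA starts, those that overlapped a protein-coding exon had a median ratio of 0.52 and the others 0.29. Across the 488 peaks the ratio was only weakly related to the overall mean (Spearman's rho 0.29, a description across peaks).

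**Figure D2:**
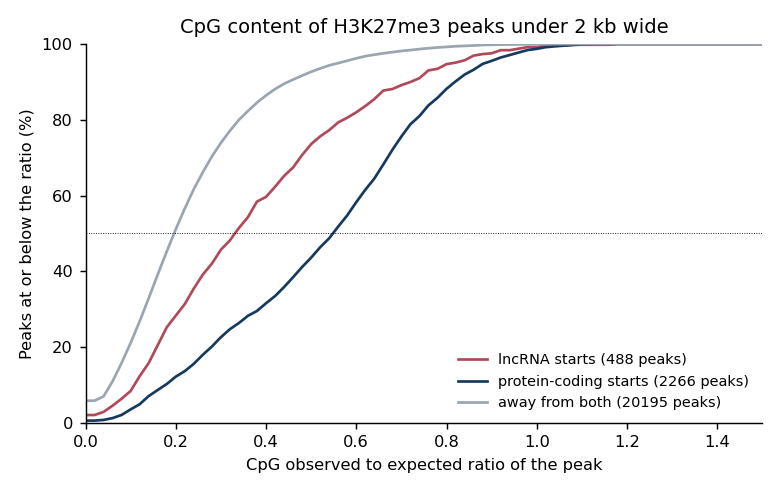
Cumulative share of peaks (%) against the CpG observed to expected ratio, for narrow peaks at lncRNA starts (488), at protein-coding starts (2266) and away from both (20195 with a sequence on a chromosome). The dotted line marks 50%, which the 3 curves cross at medians of 0.34, 0.55 and 0.20.

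Between the groups, the median of the peaks at lncRNA starts stayed near that of the whole list, and single peaks differed in both directions. The median control mean was 3.31 and the median knockdown mean 3.27. Over the 470 peaks with both groups above 0, the median difference was -0.06 with quartiles of -0.67 and 0.57, beside -0.02 with quartiles of -0.73 and 0.70 over all listed peaks. The sum of the knockdown means was 97.4% of the sum of the control means, beside 97.1% over all listed peaks, and the authors' normalization may set this ratio. The knockdown mean was at least 2-fold lower at 79 peaks (16.2%), where the same rule took 17.3% of all listed peaks. It was at least 2-fold higher at 70 peaks (14.3%), against 17.1% of all listed peaks. Both shares lay slightly under the background of the list.

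Few peaks had a group at the floor. The knockdown was listed at 0 in 5 peaks (1.02%), beside 3.35% of all listed peaks, and the control in 13 peaks (2.66%), beside 3.28%. Peaks away from both kinds of start are weaker, and there the shares were 3.77% and 3.62%. Narrow peaks at protein-coding starts are stronger, and there the shares were 1.19% and 1.37%. Solved from the overall mean with the weights of 6 and 5, the mean behind the 18 listed zeros was 0 at 11 peaks and at most 0.80 normalized reads at the others.

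Differences were smaller where the signal was strong. Among the 115 peaks that reached an overall mean of 4, 9 (7.83%) were at least 2-fold lower in the knockdown and 5 (4.35%) at least 2-fold higher, where 9.12% and 5.02% of all listed peaks of that strength were lower and higher. Among the 195 peaks below 3, 39 (20.0%) were lower and 38 (19.5%) higher, near the 17.8% and 21.1% of all listed peaks of that strength. Across the 470 peaks the control and knockdown means had a Pearson's r of 0.50, a description across peaks measured in the same libraries. The peaks with the lowest means carry the fewest reads, and 2-fold differences were most frequent among them.

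**Figure D3:**
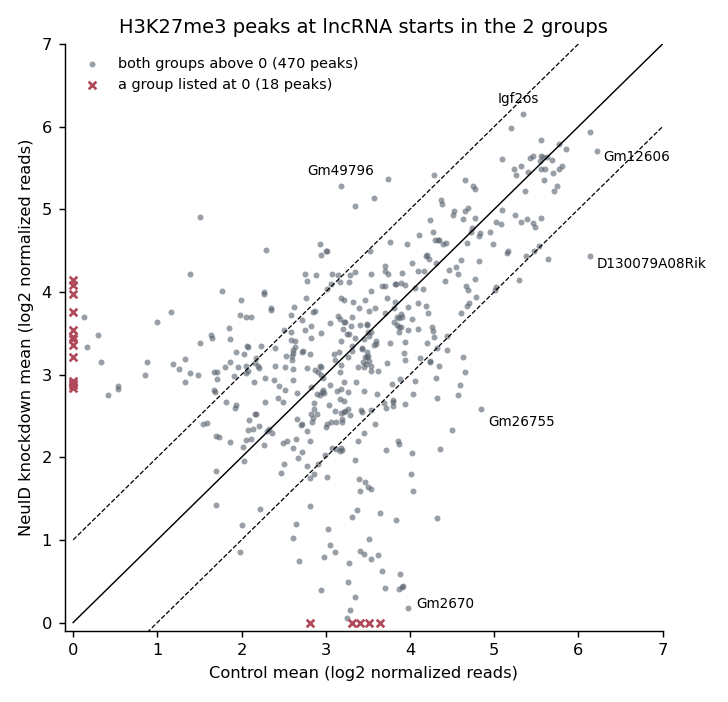
Control mean against NeuID knockdown mean (both log2 normalized reads) for the 488 peaks at lncRNA starts, one point per peak, with equality as a solid line and 2-fold differences as dashed lines. The 470 peaks with both groups above 0 scatter on both sides of equality, and the 18 crosses on the axes are peaks with a group listed at 0.

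The 5 strongest peaks lay near genes of transcriptional control, cell cycle and signalling, and none differed 2-fold between the groups. The peak at A430072P03Rik, upstream of its start and 1406 bases from the start of Gfi1, had a control mean of 6.14 and a knockdown mean of 5.94. The peak covering the start of Gm12606, 20489 bases from the start of Cdkn2a, which encodes inhibitors of the cell cycle, had a control mean of 6.22 and a knockdown mean of 5.71. At the largest of the 3 peaks of Hoxb5os, the antisense gene of the homeobox gene Hoxb5, the means were 5.86 and 5.73. The control and knockdown means almost coincided at 9530036O11Rik, 7999 bases from the start of Shh, the gene of a secreted morphogen, at 5.77 and 5.79. Igf2os, the opposite-strand gene at the imprinted growth factor gene Igf2, was the one of these 5 with a higher knockdown mean by more than 0.5, at 6.16 against 5.34.

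The largest negative differences among peaks of at least 4 ranged from a start inside the proneural gene Neurod1 to one antisense to a transporter gene. At Gm26755 (gene start at chr2:79453985, peak inside Neurod1), the control mean of 4.85, or 28.8 normalized reads, stood against a knockdown mean of 2.58, or 5.98 reads. This is a 4.81-fold lower knockdown mean. At D130079A08Rik, whose start is covered and lies near Pou4f1, a POU transcription factor of sensory neurons 7850 bases away, the means were 6.14 and 4.44, or 70.6 and 21.7 reads. This was the peak with the most reads among the 6, and its knockdown mean was 3.26-fold lower. AI646519, 1272 bases from the start of Pax1, a paired box gene of the developing vertebral column, had means of 4.59 and 2.87. Gm16157, whose peak lies within Fam169b, had 4.57 and 2.75. The peak covering the start of Hoxb5os had 4.65 and 3.03. The list ends with Gm17182, antisense to the phosphate transporter gene Slc34a2, at 4.63 and 3.21. Among these 6, the nearest protein-coding gene encodes a developmental transcription factor in 4, and such a gene lay within 10 kb of 27 of the 115 peaks of that strength.

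The largest positive difference among peaks of at least 4 was at a lincRNA gene far from any protein-coding start. At Gm49796, a lincRNA gene whose start the peak covers (gene start at chr17:27398147), the control mean was 3.18, or 9.03 reads, and the knockdown mean 5.28, or 38.9 reads. The knockdown mean was thus 4.30-fold higher, and the nearest protein-coding start, that of the glutamate receptor gene Grm4, is 122428 bases away. Of the peaks near Ptf1a, a basic helix-loop-helix gene of pancreas and inhibitory neurons, 1 of the 2 at Gm13344 had means of 3.35 and 5.04, and 1 of the 3 at 1810010K12Rik had 3.57 and 5.13. AC138790.2, 39685 bases from the homeobox gene Nkx2-3, had 3.74 and 5.37. Gm11535, 15625 bases from Hoxb13, had 4.29 and 5.41. Gm15222 at Bmp4, a secreted bone morphogenetic protein, had 3.52 and 4.49, a difference of 0.97 that stays under 2-fold. Only 5 peaks of at least 4 were 2-fold higher, so the sixth of the named set lies below the limit.

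Among the peaks with the knockdown at the floor, Gm40348 had a control mean of 3.64 (12.5 reads), Gm16064 one of 3.52 and Gm49151 one of 3.40. All 5 such peaks had control means between 2.82 and 3.64. With the control at the floor, 9330158H04Rik had a knockdown mean of 4.15 (17.7 reads), Gm16237 one of 4.09 and 4930545L08Rik one of 3.97. The 13 such peaks had knockdown means between 2.83 and 4.15. At the same lncRNA gene, 9330158H04Rik, a second peak downstream of the start had a control mean of 4.32 and a knockdown mean of 3.32. The neighbouring peaks of this gene, which lies at the muscarinic receptor gene Chrm2, therefore differed in opposite directions.

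**Figure D4:**
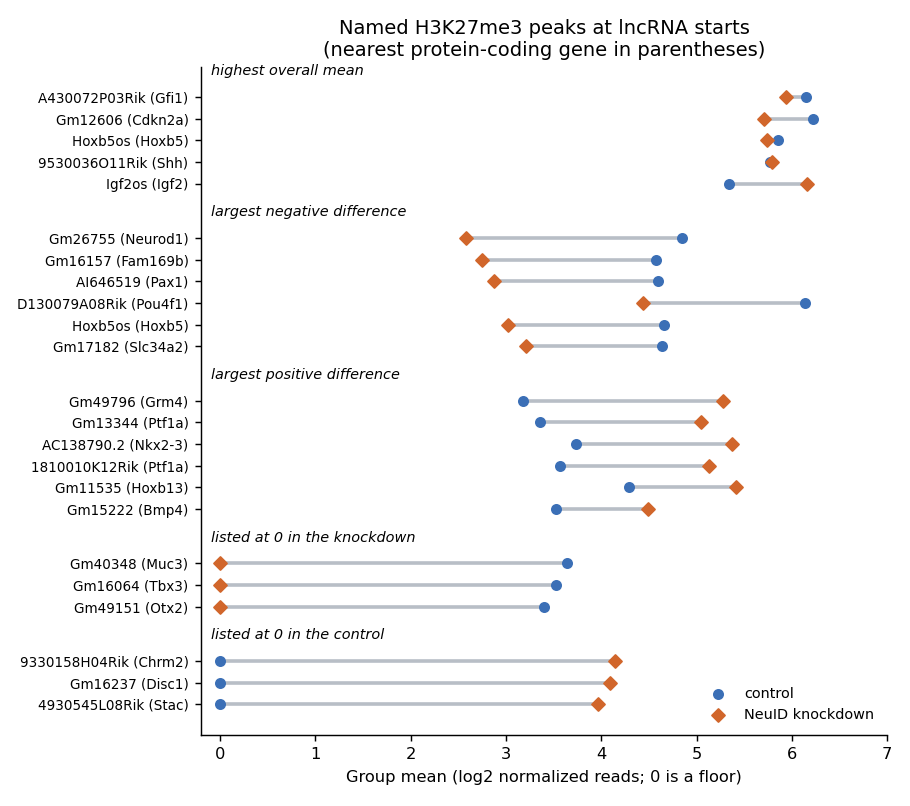
Control mean (blue circles) and NeuID knockdown mean (orange diamonds) in log2 normalized reads for the 23 peaks named by overall mean, by difference or by a group at 0, with the nearest protein-coding gene in parentheses. None of the strongest 5 differs 2-fold, while the control and knockdown means are 4.85 and 2.58 at Gm26755 and 3.18 and 5.28 at Gm49796.

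Peaks beside developmental transcription factor genes were stronger than the rest by median and leaned to a lower knockdown mean. Of the 488 peaks, 44 had such a gene (homeobox, paired box, forkhead, GATA, T-box and related families) as the nearest protein-coding gene with its start within 10 kb, at 34 lncRNA genes and 34 factor genes. Their median overall mean was 4.29, against 3.17 in the other 444 peaks. Their median control mean was 4.55 and their median knockdown mean 4.16. The median difference was -0.23 with quartiles of -0.66 and 0.06, and the knockdown mean was the lower one in 32 of the 44. At least 2-fold lower were 6 (13.6%) and at least 2-fold higher 3 (6.82%), both under the 17.3% and 17.1% of all listed peaks. Over all listed peaks with both groups above 0, the knockdown mean was the lower one in 11229 of 22097. In the other peaks at lncRNA starts the median difference was 0.01. A like lean was seen in the 76 peaks at lncRNA starts with a peak of at least 2 kb within 5 kb. Their median difference was -0.21, with the lower mean in the knockdown in 50, beside 0.01 in the 412 without such a wide peak. The overlap of these sets with the factor neighbours was not counted.

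Over the 27 of these peaks that reached an overall mean of 4, the median difference was -0.27, and the knockdown mean was lower in 22 of them. At least 2-fold lower were 4 of the 27 (14.8%) and none was 2-fold higher, beside the 9.12% and 5.02% of all listed peaks of that strength. In the other 88 peaks at lncRNA starts of that strength, 5 (5.68%) were lower and 5 higher. The median difference was 0.04 over those 88 peaks, of which 40 had the lower mean in the knockdown. It was -0.11 over all 3344 listed peaks of that strength, of which 1920 had the lower mean in the knockdown. The 883 other narrow peaks that lie 1 to 10 kb from such a factor start, at no lncRNA start, had a median difference of -0.13. The 380 of them that reached 4 had -0.18, with the lower mean in the knockdown in 231. Over all 20221 narrow peaks away from both kinds of start the median difference was -0.02. Over the 1747 of these that reached 4, which include those 380, it was -0.15, with the lower mean in the knockdown in 1022. A lower knockdown mean was thus also seen in strong narrow peaks at no lncRNA start, both near a factor gene and in the wider set. Whether the sets differ was not tested. The overall mean weights the control slightly more (6 to 5), so a limit of strength can admit more peaks with a high control mean. Its effect on these differences was not tested.

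Single genes of this group ranged widely. At Paupar, the lncRNA divergent from the eye and forebrain gene Pax6, the control mean was 5.53 and the knockdown mean 4.56, chosen for mention after the values were seen. At Gm26688, near Tfap2a, a factor of neural crest, the stronger peak had 5.77 and 5.49. Gm28528 near Six3 had 1.98 and 3.72, a difference of the opposite sign that was also picked out after the values were seen.

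**Figure D5:**
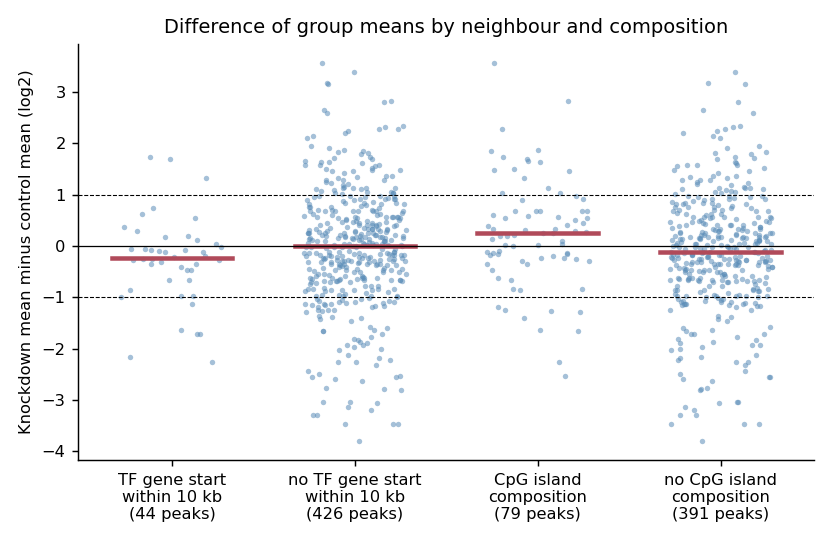
Knockdown mean minus control mean (log2) of each peak at a lncRNA start with both groups above 0, split by whether the nearest protein-coding gene is a developmental transcription factor (TF) gene with its start within 10 kb (44 and 426 peaks) and by CpG island composition (79 and 391 peaks). Horizontal bars are medians, at -0.23, 0.01, 0.25 and -0.12 from left to right, and dashed lines mark 2-fold differences.

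The lncRNA genes of the Hox clusters, whose homeobox neighbours pattern the body axis, held 6 of the peaks. Of these, 1 was lower and 1 higher by 2-fold, where 17.3% and 17.1% of all listed peaks were. Hotair, the lncRNA of the Hoxc cluster, was covered at its start with a control mean of 5.70 and a knockdown mean of 5.44. Along the Hoxb cluster the differences were unequal. The 3 peaks of Hoxb5os had differences of -1.63, -0.05 and -0.12, while the peak upstream of Hoxb3os had a control mean of 2.27 and a knockdown mean of 3.97.

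The list of brain-expressed and nuclear lncRNA genes held 11 peaks. None was lower and 2 were higher by 2-fold, beside 17.3% and 17.1% of all listed peaks, too few peaks to set apart from those shares. Dlx1as, antisense to the interneuron homeobox gene Dlx1, had 5.59 in the control and 5.35 in the knockdown at its stronger peak. Hand2os1, beside the cardiac and autonomic factor gene Hand2, had 5.32 and 4.85. Otx2os1, beside the forebrain gene Otx2, had 4.99 and 4.58. The peaks of Gad1os, antisense within Gad1, the gene of the enzyme that makes the transmitter GABA, had differences of 0.12 and 1.65. Of the 3 peaks of Dlx6os1, a lncRNA gene antisense to Dlx6, the differences were -0.36, 0.11 and 0.54. The second of the higher peaks was at Miat, at 2.17 and 3.20. The median difference of this list was -0.01.

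The other lists held few peaks. Igf2os was the single peak of the imprinted and X-inactivation list, and no peak lay at a small nucleolar RNA host gene. The microRNA host list held 2 peaks, both at Mir155hg, which carries the immune microRNA miR-155. Their control means were 3.71 and 2.00 and their knockdown means 2.08 and 1.18. Of 7 peaks beside genes of secreted signalling proteins, 2 were lower and 1 higher by 2-fold, beside 17.3% and 17.1% of all listed peaks. Both lower ones were at Gm2670, antisense within Wnt5a, a secreted Wnt ligand, with control means of 3.98 and 3.40 against knockdown means of 0.18 and 0.86. The first of these was the most negative difference of all 488 peaks, at -3.80, with 15.7 reads in the control and 1.13 in the knockdown. At Gm12930, beside the Wnt agonist gene Rspo1, the means were 3.51 and 3.77.

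Peaks of CpG island composition leaned to the other side. The 80 such peaks at lncRNA starts had a median difference of 0.25, with 9 (11.2%) lower and 16 (20.0%) higher by 2-fold, while the 408 others had -0.12, with 70 (17.2%) lower and 54 (13.2%) higher. Over all listed peaks, 10.5% of those with island composition were lower and 12.7% higher, and 17.9% and 17.5% of the rest. The median difference by the same split of all listed peaks was 0.02 for 1836 peaks and -0.02 for 21806, and over narrow peaks at protein-coding starts it was 0.05 and 0.02. By strength, the median of the island-like peaks at lncRNA starts was 0.68 in 19 peaks below 3, 0.03 in 35 peaks from 3 to 4 and 0.17 in 26 peaks of at least 4. The median was largest in the weakest class but did not fall steadily with strength. Over all listed peaks of island composition, the medians in the same 3 classes were 0.18, 0.04 and -0.02. Whether read number bears on the lean was not tested. Across the 488 peaks the difference and the CpG ratio were almost unrelated (Spearman's rho 0.06).

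Neighbouring peaks at one lncRNA gene shared the sign of their difference at some genes and differed in sign at others. The agreement of unrelated peaks was not computed, so the counts do not show whether neighbours agree more or less. At 64 genes there were at least 2 peaks at the start, 141 peaks in all. In 63 of them every peak had both groups above 0, and in 34 of those all differences had one sign. With exactly 2 peaks, 30 of 51 genes had one sign. Gm45278, an antisense gene with Ebf3 as the nearest protein-coding gene by start, had the most peaks, with differences of -1.07, -2.50, 0.68 and 0.61. After 1 read was added to each mean, these were -0.92, -2.04, 0.56 and 0.57. Of the 11 genes with 3 peaks, 4 had one sign throughout. These were Hoxb5os, Gm16063 near the limb and heart factor gene Tbx3, 2210039B01Rik and Gm47134. The control means of Gm47134 were 3.69, 4.24 and 4.33 and its knockdown means 2.65, 3.15 and 1.27. By these means every one of its peaks was at least 2-fold lower, where 17.3% of all listed peaks were. With 1 read added to each mean, its differences were -0.93, -1.01 and -2.63, so the first fell under 2-fold.

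The locus around Ptf1a held 7 of the peaks at 3 lncRNA genes within 25.4 kb (chr2:19427756-19453153). Along it the differences were -3.04 and 0.09 at Gm33940, 1.69 and 0.21 at Gm13344, and -0.77, -0.60 and 1.57 at 1810010K12Rik. Adding 1 read to each mean moves a difference most where a mean is low. With it the -3.04 became -2.43, the 1.69 became 1.60 and the 1.57 became 1.49. Adjacent peaks of one Polycomb-marked locus thus differed in sign. The locus of Tfap2a also held 7 peaks, with differences from -0.48 to 1.87. Where a peak of at least 2 kb lay within 5 kb, as it did for 76 of the 488, the sign matched that of the wide peak in 41. This count was not set against pairs of unrelated peaks. The interquartile range of the differences was 0.97 in those 76 and 0.60 in their wide neighbours.

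No peak of the set lay at the start of Gm10419, the gene of NeuID itself (chr5:108367769-108378239, plus strand). The nearest listed peak, 2223 bases from its start, belongs to the set through the lncRNA gene Gm42518 and had a control mean of 1.86 and a knockdown mean of 2.18. Within the gene body, 3 further listed peaks were found, named here after their values were seen. Their control means were 3.18, 0.74 and 1.67 and their knockdown means 3.70, 3.47 and 4.40, so the knockdown mean was the higher one at each. The larger differences rest on the low control means of 0.74 and 1.67. Over all listed peaks with both groups above 0, the knockdown mean was the higher one in 10868 of 22097. How far NeuID RNA was reduced was not analysed here.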

How the data were processed

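H3K27me3 ChIP-seq of primary hippocampal neurons was analysed through 1 deposited peak table. The authors aligned single-end reads to mm10 (GRCm38) using Bowtie2. The authors took broad peaks from MACS2 and made the table in DiffBind with its DESeq2 option; the tool versions, the normalization and any input subtraction are not given in the sources used here. The deposited log2 values are mean normalized reads, as the authors computed them for all libraries together and for each group. Another 3 columns hold the authors' own comparison (log2 fold, p-value and FDR) and were not used. Groups were taken from the sample titles. With group means only, no test was possible, and no count model was fitted here.

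Gene starts and types came from GENCODE M21 and the sequence from the reference genome GRCm38; the 23642 peaks on chromosomes all lie inside them, and 26 peaks lie elsewhere. The gene types were lincRNA, antisense, processed_transcript, bidirectional_promoter_lncRNA, sense_intronic and lncRNA. Distance was counted from the peak edge and was 0 where the peak covered the start. Peaks near several starts (14 of the set) were assigned to the nearest.

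The peaks named were the 5 with the highest overall mean, the 6 largest differences in each direction among those that reached an overall mean of 4, the 3 highest with each group at 0, up to 4 of each gene list by overall mean, the genes with the most peaks, and the peak nearest to Gm10419. Other peaks are marked as chosen after their values were seen or are given as further peaks of a named gene or locus. The values of 1 listed peak are not reported here. The peaks and gene lists were chosen with earlier results of these data known, so no pattern over them is independent support. Scripts were tested on simulated data. The software was pysam 0.24.0, matplotlib 3.10.9, SciPy 1.17.1, pandas 2.3.3 and numpy 2.4.6 under Python 3.11.15.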

Additional observations from a re-analysis of the deposited data

How the results depend on the processing

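No paired analysis was possible because the deposited values are group means, and for the same reason no library could be left out. The median difference stayed between -0.12 and -0.0037 under all 10 alternatives tried, within the 95% order-statistic interval of the reported median (-0.17 to 0.05), which covers the spread over peaks and not over libraries. With a 0.5 kb window, 44 peaks were 2-fold higher, the knockdown was at 0 in 3 and the control in 7, and the median CpG ratio was 0.40. With a 2 kb window, 13 were at 0 in the knockdown and the CpG ratio was 0.28. With starts of any annotated transcript, 8 were at 0 in the knockdown and the ratio was 0.29. Taking only peaks that cover the start left 142 peaks, with 23 lower, 18 higher, 0 with the knockdown at 0, 2 with the control at 0 and a ratio of 0.41. An overall mean of at least 4 left 115 peaks, with 9 lower, 5 higher, 0 at 0 in either group and a ratio of 0.49. A size limit of 1.5 gave 48 lower and 38 higher. Wider gene types, no width limit, centring, a pseudocount of 1 and autosomes only kept each count within 1.5 times. The pseudocount and centring were also applied to 53 single peaks with both groups above 0. These were the peaks named by the rules and further ones whose values are given. Their kept signs are no check, because a pseudocount cannot change the sign of a difference. Centring subtracted only -0.0184 from each difference. The limit of these data is the lack of values per library: a 2-fold difference between means of fewer than 10 normalized reads cannot be set against replicate error.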

Other observations

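By chromosome, the 9 peaks at lncRNA starts on chromosome 16 included 6 with an at least 2-fold lower knockdown mean and 0 with a higher one, whereas 104 of the 606 listed peaks of that chromosome were lower and 105 higher. On chromosome 14, 8 of 26 peaks at lncRNA starts were lower and 1 higher, against 156 and 162 of 863 listed peaks. Other chromosomes leaned the opposite way. On chromosome 13, 0 of 27 peaks at lncRNA starts were lower and 4 higher, and on chromosome 17, 2 of 25 were lower and 6 higher. Over all listed peaks, 17.3% were lower and 17.1% higher. All of these chromosomes were picked out after the values were seen, and each holds few peaks of the set. On chromosomes 14 and 16, some peaks at lncRNA starts share a gene. Both peaks at Gm2670 on chromosome 14 were 2-fold lower, and so was 1 of the 2 at Mir155hg on chromosome 16.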
